A study of Triticum aestivum with 6 samples.

Results

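The authors listed 861 genes as different between leaves of wheat seedlings from ultrasound-treated and untreated seeds. Nitrate reduction, the NRT1/PTR transporter family and a putative peptide transporter were represented by 6 of them. The genes were those whose deposited description names a nitrate reductase, a nitrite reductase, the NRT1/ PTR family or a peptide transporter, with the described gene being the same as the gene in the probe name. They were thus chosen by keyword among genes already selected on the authors' false discovery rate (FDR), the adjusted p-value of this comparison. They comprised 1 nitrate reductase, 3 ferredoxin-nitrite reductases, 1 NRT1/PTR family gene and 1 putative peptide transporter, each with 1 probe. The seedlings were of winter wheat (Triticum aestivum, breeding line SE15) and were collected 7 days after germination at 20 °C in darkness. The ultrasound group came from 100 seeds exposed to 30 kHz at 70 W for 5 minutes, 4 cm from the ultrasound head, and the control group came from 100 seeds without this treatment; seed water content was 13.6%. Per the labels there were 3 samples in each group, and no nitrogen supply is named. The labels do not tie the samples to separate dishes or batches of seed, and the p-values may therefore reflect technical variation alone.

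Plants take up nitrate through membrane transporters and reduce it in 2 steps. Nitrate reductase, a cytosolic molybdenum enzyme, turns nitrate into nitrite with electrons from NADH or NADPH. Nitrite is toxic to cells and enters the plastid, where nitrite reductase converts it to ammonium with electrons from reduced ferredoxin, and glutamine synthetase and glutamate synthase then build the ammonium into amino acids. In many plants the genes of both reductases are induced by nitrate and by light. The NRT1/PTR family (NPF) is a large family of proton-coupled transporters whose members carry nitrate, short peptides, hormones or other small molecules, so a family name alone does not give the substrate.

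The data were the authors' own statistics for a comparison of groups that the file headers call K1 and US1. No value per library was analysed here, so the depth, the expression level in each group and the spread between samples are unknown, and at most 3 samples per group can have entered. Which group is the numerator of the fold change is not stated. Genes are therefore placed on the positive or the negative side as deposited; if US1 was divided by K1, a positive value would stand for a higher level after ultrasound, but this is not known. The standard error (SE) of each log2 fold change was recovered from the authors' p-value by assuming a Wald test, and intervals are at 95%. Each of the 6 genes had an FDR under 0.05, so its values are a description and were not tested again. The leaf label could not be checked against tissue markers, because the table holds only genes that differed. It did list 37 chlorophyll a-b binding genes, 9 genes of the Rubisco small chain and 2 plastocyanin genes. All of these are genes of photosynthesis, which do not by themselves identify leaf, and all were on the positive side. Seed reserve keywords found 0 listed genes and root keywords found 0. Since 72.0% of the listed genes carry no description, these zeros do not show that such genes were absent from the list.

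Of the 6 genes, 5 lay on the positive side and 1 on the negative side in the authors' deposited table. All 4 reductases were positive, while the transporters were split, 1 positive and 1 negative. In such bulk leaf samples, a change in the number of cells of a type and a change in RNA per cell cannot be told apart. The table as a whole held 441 positive and 420 negative genes, and 51.2% of its genes, or 70.3% of the 232 with a description of their own, were positive. The listed genes were 1.12% of 76618 tests, a number recovered from the FDR values, with 0.576% positive and 0.548% negative; being listed is what chose the 6 genes, so nothing is read from that share. In the authors' deposited table the median absolute log2 fold change was 3.71 over the 6 genes and 1.81 over all listed genes. After the authors' shrinkage, which pulls imprecise folds towards 0, the medians were 1.31 and 1.26. The 6 genes thus stood well above the typical listed gene on the unshrunk scale and close to it on the shrunk scale. Their median SE was 0.91 against 0.43 over the table. Because a gene with a larger SE needs a larger unshrunk fold to be listed, nothing is read from the higher unshrunk median.

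**Figure D1:**
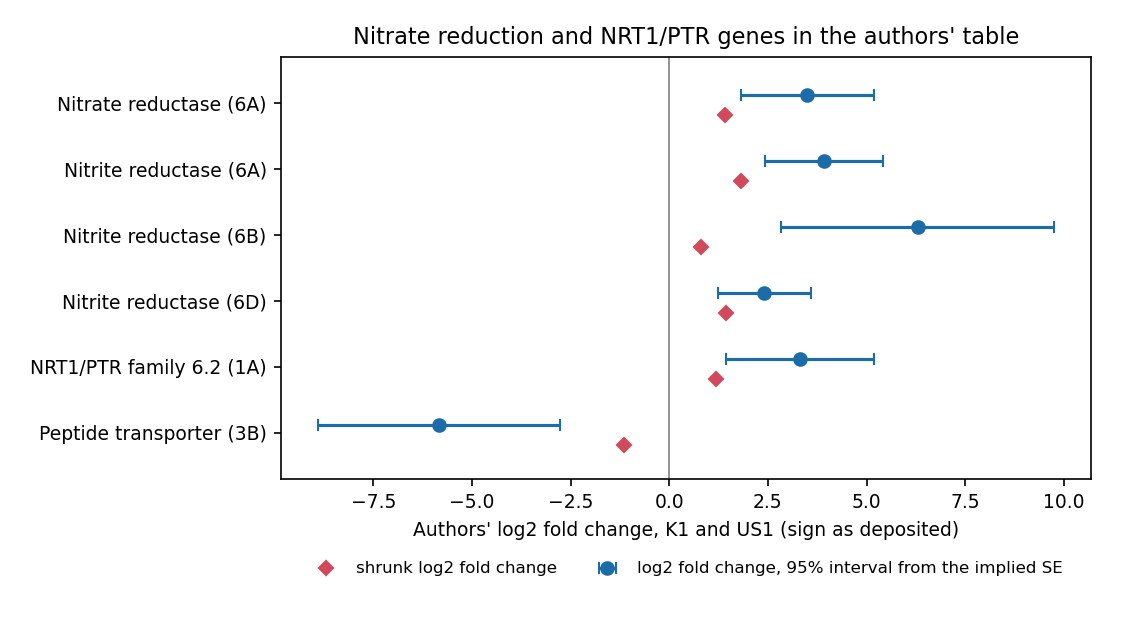
Authors' log2 fold change of the 6 genes, with chromosomes in brackets. Circles are unshrunk folds with 95% intervals from the implied SE and diamonds are the authors' shrunk folds. Of the genes, 5 lie right of 0 and the peptide transporter lies left of it. Nitrite reductase on 6B has the widest interval and the shrunk value nearest to 0.

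Nitrate reductase, the first enzyme of the pathway, was represented by TraesCS6A02G017500 at low coordinates of chromosome 6A (8694483 to 8700180, minus strand). The authors' deposited log2 fold change was 3.49 (SE 0.86), an 11.3-fold ratio, with an interval from 1.81 to 5.18. The end of that interval nearest to no change is a 3.50-fold ratio. The authors' DESeq2 adjusted p was 0.0103, which is just above 0.01, and the gene ranked 364 of 861 by p-value. Its shrunk value was 1.42, a 2.68-fold ratio, which keeps 40.7% of the unshrunk log2 fold. No nitrate reductase of chromosome 6B or 6D was listed under that description. As 72.0% of the listed genes have no description, this does not show that copies on other chromosomes behaved differently.

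Nitrite reductase, the second enzyme, was listed from all 3 subgenomes of hexaploid wheat. The genes lie on 6A, 6B and 6D and carry the same description, projected from an Arabidopsis thaliana protein and naming a chloroplast location. TraesCS6A02G333900 (6A, 564882616 to 564886300, plus strand) had the lowest p-value of the 6 genes. Its log2 fold change in the authors' deposited table was 3.93 (SE 0.76, interval 2.43 to 5.43), a 15.2-fold ratio, with a DESeq2 adjusted p of 0.000207. It was the only one of the 6 with an FDR under 0.01, a limit met by 361 listed genes (41.9% of the table and 0.471% of all tests). Its shrunk value of 1.82 ranked 63 of 861 by size.

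TraesCS6D02G313100 (6D, 422078484 to 422081985, plus strand) had the smallest unshrunk fold of the 3 nitrite reductases and the smallest SE of all 6 genes. The authors' deposited log2 fold change was 2.41 (SE 0.60, interval 1.23 to 3.59), a 5.31-fold ratio, with a DESeq2 adjusted p of 0.0127. Shrinkage kept 59.4% of it, to 1.43, a value close to the 1.42 of nitrate reductase. TraesCS6B02G364600 (6B, 636392631 to 636397024, plus strand) was the opposite case, with the largest unshrunk and the smallest shrunk fold of the 6 genes. Its deposited log2 fold change was 6.29 (SE 1.77, interval 2.82 to 9.76), a 78.4-fold ratio, and its DESeq2 adjusted p was 0.0401. The shrunk value was 0.80, a 1.75-fold ratio, so that 12.8% of the unshrunk log2 fold was kept. The gene ranked 29 of 861 by unshrunk size and 848 by shrunk size, and its SE ranked 10 of 861 from the largest.

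The intervals of all 3 nitrite reductases overlapped, sharing the stretch from 2.82 to 3.59. The order of the copies by unshrunk fold (6B, 6A, 6D) and by shrunk fold (6A, 6D, 6B) was not the same. Overlap of intervals does not show that the copies had equal folds, and the differences between copies were not tested. Copies of a wheat gene on different subgenomes can be nearly identical in sequence, and the sources used here do not say how reads that match more than 1 copy were counted, so the split of signal among the 3 genes is uncertain.

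**Figure D2:**
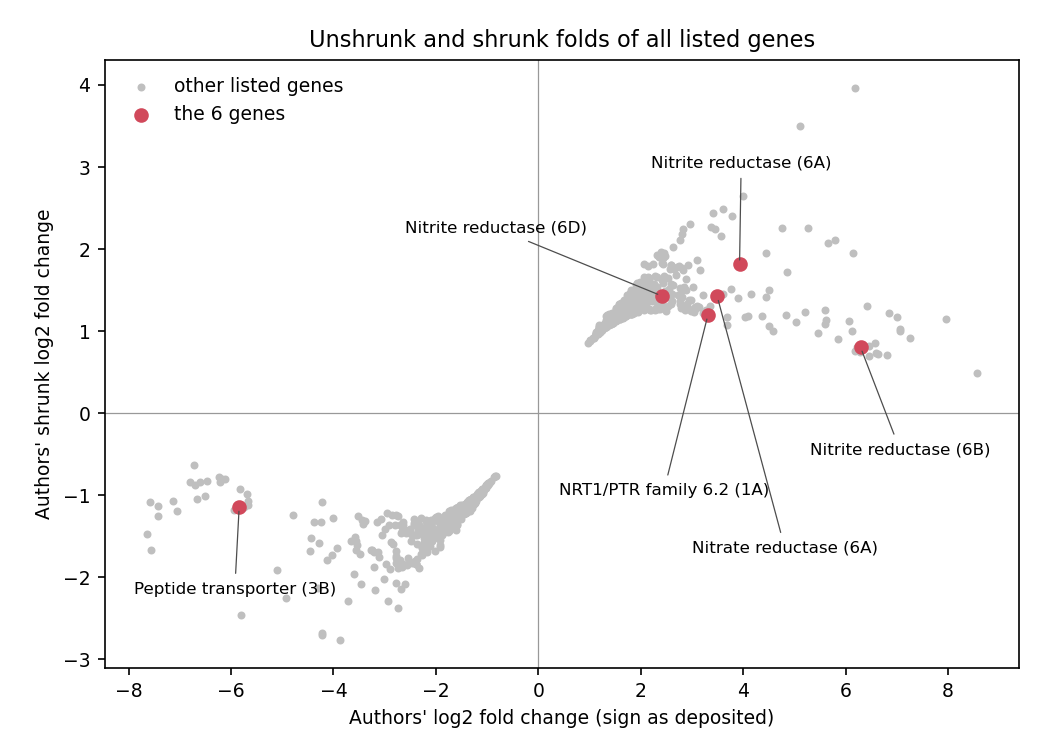
Authors' unshrunk (x axis) and shrunk (y axis) log2 fold change of all 861 listed genes, with the 6 genes in red. Nitrite reductase on 6B and the peptide transporter on 3B sit in the arms where a large unshrunk fold goes with a small shrunk value, 0.80 and -1.15.

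The nitrite reductases were 1 of 7 sets in which exactly 3 listed genes of a chromosome group shared a description. These lay on the A, B and D copies of that group. The rule was chosen after the values were seen and does not count listed genes of other groups with the same description. In each of the 7 sets all genes lay on the same side, positive in 5 sets and negative in 2. The sets could come only from the 232 genes with a description of their own, of which 70.3% were positive. Nothing is therefore read from the number of positive sets. How reads that match more than 1 copy were counted is unknown, which also limits what the shared side within a set can show. In the authors' deposited table the nitrite reductase folds spanned 3.88 log2 units, and the spans of the other sets ran from 0.27 for fructose-bisphosphate aldolase to 1.65 for the histone-fold genes. On the shrunk scale the span was 1.01, next to 0.95 for glutamyl-tRNA reductase, an enzyme of chlorophyll synthesis. The nitrite reductases also had the largest SE of the 7 sets, 1.77, and the difference in span was not tested.

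**Figure D3:**
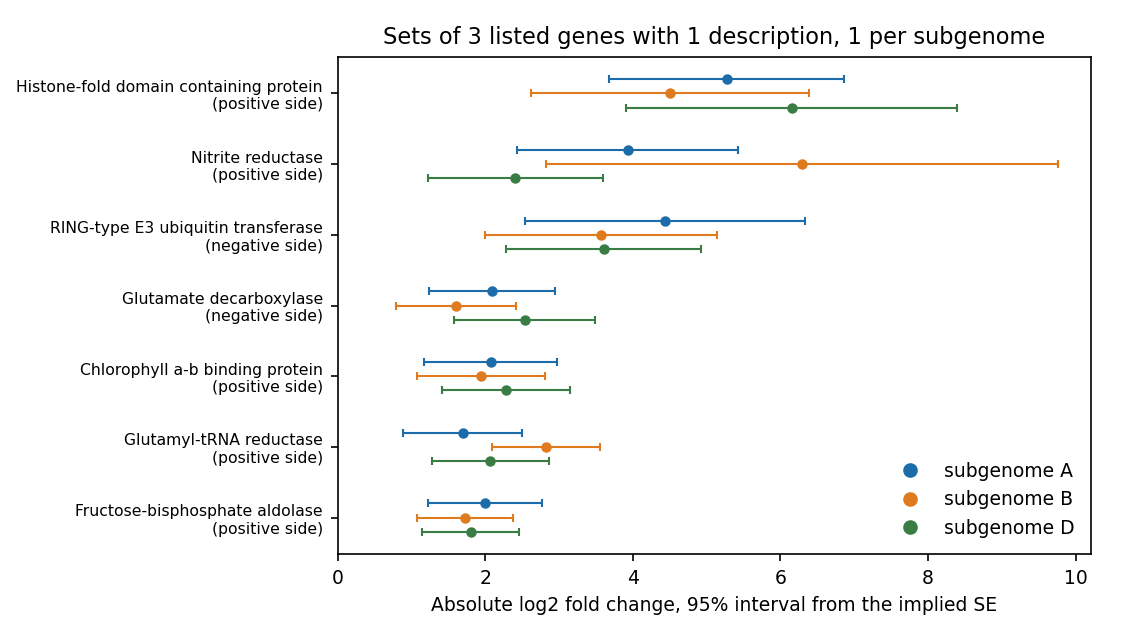
Absolute log2 fold change of the 7 sets, as points with 95% intervals from the implied SE. Each set holds 3 listed genes that share a description across subgenomes A, B and D within a chromosome group. Nitrite reductase spans 2.41 to 6.29 with overlapping intervals, and the interval of its B copy is the widest shown.

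The NRT1/PTR family was represented by TraesCS1A02G031300 on chromosome 1A (14519757 to 14525659, plus strand), described as Protein NRT1/ PTR FAMILY 6.2 by projection from Arabidopsis thaliana. In Arabidopsis this protein, also called NRT1.4, is a nitrate transporter of the leaf petiole, and its role in wheat is not given by the files. The authors' deposited log2 fold change was 3.31 (SE 0.96, interval 1.43 to 5.19), a 9.93-fold ratio, with a shrunk value of 1.20. Its DESeq2 adjusted p of 0.0494 lay just inside the threshold, and 3 listed genes had a larger p-value. The largest FDR in the table was 0.0499, and genes just outside the threshold are not analysed here.

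The negative gene was TraesCS3B02G454000 on chromosome 3B (695504091 to 695513213, plus strand), described as a putative peptide transporter. Its log2 fold change in the authors' deposited table was -5.84 (SE 1.56, interval -8.90 to -2.78), with a DESeq2 adjusted p of 0.0254. That is a 57.3-fold ratio in the direction opposite to the reductases, and the interval's nearer end is 6.85-fold. The shrunk value was -1.15, a 2.21-fold ratio, and it kept 19.6% of the unshrunk log2 fold. Its SE ranked 39 of 861 from the largest. In plants, many proteins called peptide transporters belong to the same family as the NRT1 nitrate transporters. The description of this gene names neither that family nor nitrate transport.

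The 6 genes did not lie in runs of listed neighbours. The nearest other listed gene was 529 kb away from nitrite reductase on 6D, and it was TraesCS6D02G314300, described as an allene oxide cyclase of jasmonic acid synthesis, with a deposited log2 fold change of 1.62. For the other 5 genes the nearest listed gene lay between 751 kb and 16954 kb away. Nitrate reductase and nitrite reductase on 6A lie far apart on the same chromosome, with other listed genes between them. The probes spanned 3502 to 4394 bases for the nitrite reductases, 5698 for nitrate reductase, 5903 for NRT1/ PTR FAMILY 6.2 and 9123 for the peptide transporter. The authors' table annotates each probe only as overlapping a gene, not an exon or UTR. The sources used here name no genome build for these positions.

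Around the 2 reduction steps, 33 further keywords for nitrogen uptake, cofactors, electron supply, ammonium assimilation and amino acid transport found 8 other listed genes, 4 positive and 4 negative. They matched 3 keywords, namely ferredoxin, glutamate decarboxylase and 6-phosphogluconate dehydrogenase. The other 30 keywords found none, among them those for glutamine synthetase, glutamate synthase, asparagine synthetase, ammonium and high-affinity nitrate transporters, and the molybdenum cofactor. Because most listed genes have no description and genes above the FDR threshold are not analysed here, these zeros do not show that the genes were unchanged. The 8 genes had a median absolute log2 fold change of 1.60 in the authors' deposited table, below the 1.81 over all listed genes, and a median SE of 0.42. On the shrunk scale the medians were close, 1.22 and 1.26.

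Ferredoxin, the electron donor of nitrite reductase and of many other plastid reactions, had 4 listed genes, of which 3 were positive. In the authors' deposited table TraesCS7A02G325500 had a log2 fold change of 1.28 (SE 0.33), TraesCS7B02G226100 of 1.12 (SE 0.29) and TraesCS5D02G516100 of 1.02 (SE 0.27). Their unshrunk folds were all smaller than those of the 4 reductases, whose smallest was 2.41. On the shrunk scale they had 1.07, 0.97 and 0.90, which is above the 0.80 of nitrite reductase on 6B and below the values of the other 3 reductases. The fourth, TraesCS3D02G366600 on 3D, was negative at -2.56 (SE 0.46, DESeq2 adjusted p = 3.02e-05). The descriptions do not tell leaf from root forms of ferredoxin. 6-phosphogluconate dehydrogenase, which forms NADPH in the oxidative pentose phosphate pathway, was represented by TraesCS1A02G357200 at 1.61 (SE 0.42) in the authors' deposited table.

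Glutamate decarboxylase, which turns glutamate into the amino acid GABA and so acts downstream of nitrogen assimilation, had 3 listed genes, all negative. The authors' deposited log2 fold changes were -2.53 (SE 0.49) for TraesCS4D02G232700, -2.09 (SE 0.43) for TraesCS4A02G075600 and -1.60 (SE 0.41) for TraesCS4B02G231400. The 4 reductases thus lay on one side of the comparison and the 3 glutamate decarboxylases on the other, both sets having been listed because they passed the same threshold in the same samples.

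**Figure D4:**
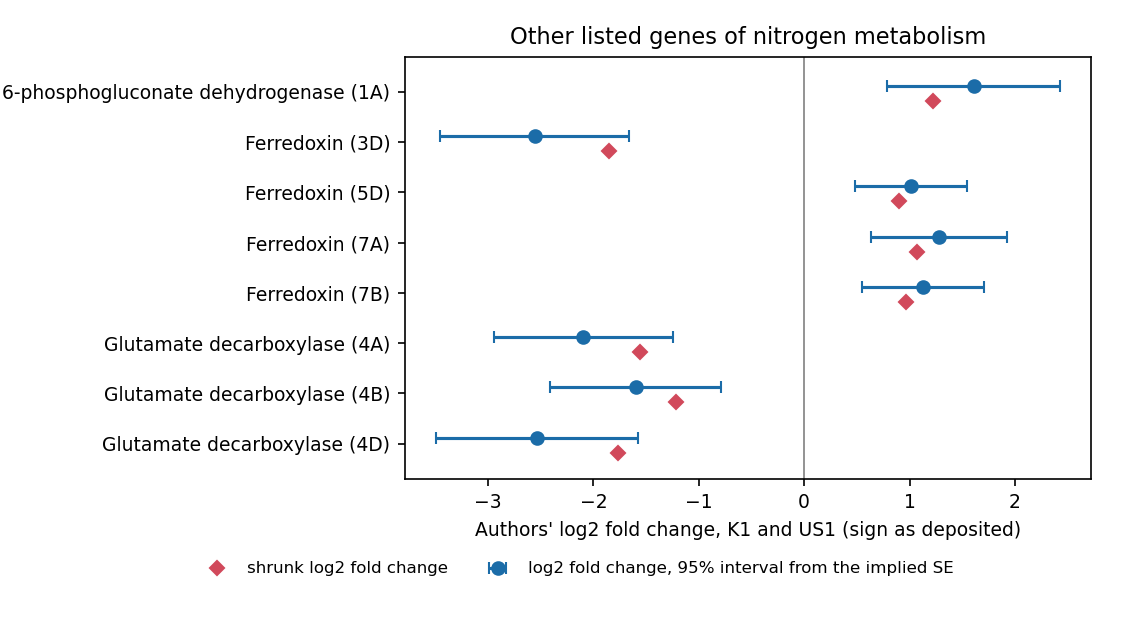
Authors' log2 fold change of the 8 other listed genes found by the nitrogen keywords, with 95% intervals from the implied SE (circles) and shrunk values (diamonds). The 3 glutamate decarboxylases and the ferredoxin on 3D lie left of 0, and 3 ferredoxins and 6-phosphogluconate dehydrogenase lie right of it, between 1.02 and 1.61.

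The authors' second deposited table, a selection of 52 genes by a Z-score of the difference (0.0433% of 120099 tests, recovered from its FDR values), held 0 of the 6 genes. The same 4 keywords found 0 genes in it, and the 33 nitrogen keywords also found 0. Which test gave that score is not stated.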

How the data were processed

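Messenger RNA of 6 leaf samples was sequenced on an Illumina NovaSeq instrument after poly-T enrichment, per the labels' protocols, and strand marking is not described. STAR 2.7.10a, Trim Galore 0.6.7, FastQC 0.11.9 and DESeq2 appear in the submitters' processing notes, with no roles; genome build and annotation: not given in the sources used here. Per the file headers, the first deposited table holds the authors' log2 fold change per probe, its shrunk form, the p-value and the FDR, and the second a p-value, an FDR and a Z-score, a score of the difference. Depth is unknown.

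Samples were grouped by title. The planned tests of expression need values per library and were not run. The SE is the size of the log2 fold change over the normal quantile for a two-sided p, assuming a Wald test. The shrinkage gives a check: the unshrunk over the shrunk log2 fold, minus 1, divided by the squared SE, ran from 1.68 to 2.18 over the 6 genes and had quartiles of 1.82 and 1.85 over all 861. All 6 genes lay outside those quartiles, so the check is less close for them than for at least the middle of the table. The number of tests is the commonest value of FDR times rank over p. All 6 genes were named by rule, with every gene found by the nitrogen keywords. Members, lists and alternatives were chosen with earlier results of these data known. The RefSeq gene table holds 0 of these gene identifiers, so no sequences are shown. Python 3.11.15, pandas 2.3.3 and SciPy 1.17.1 were used.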

Additional observations from a re-analysis of the deposited data

How the results depend on the processing

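The 5 positive and 1 negative genes kept their counts with the description of another gene allowed. They also kept them with the sign of the shrunk fold and with a minimum absolute log2 fold of 2. Neither of those could change the counts, because shrinkage towards 0 keeps the sign and the smallest absolute log2 fold was 2.41. At an FDR under 0.01 the counts were 1 and 0, and the other nitrogen genes on the positive side dropped from 4 to 0, while 3 of 4 negative ones passed. That limit was met by 41.9% of all listed genes, 16.7% of the 6 genes and 37.5% of the 8 other nitrogen genes. The difference between the sides was not tested. With the reductase keywords alone there were 4 positive and 0 negative genes, and with the transporter keywords alone 1 and 1. The median absolute log2 fold change of 3.71 became 1.31 with shrunk values, so the size of these folds depends on that choice, above all for nitrite reductase on 6B. The second table held 0 of the genes by name and 0 by keyword. Leaving out each replicate could not be run without values per library. No paired analysis was possible because the files hold no values per library and their columns carry no replicate numbers. The depth is unknown, so its limit on these values cannot be stated.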

Other observations

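Besides the putative peptide transporter on 3B, 5 other listed genes were described as transporters, a keyword chosen after the values were seen. Of these 5, 3 were positive and 2 negative in the authors' deposited table. Bidirectional sugar transporters of the SWEET family, which move sugars across membranes, were positive on 5B (TraesCS5B02G040700, log2 fold change 2.04, SE 0.44) and on 5D (TraesCS5D02G046300, 2.06, SE 0.55). A metal-nicotianamine transporter (TraesCS6B02G283900) was positive at 2.77 (SE 0.74). A PDR-type ABC transporter (TraesCS5A02G016200) was negative at -2.18 (SE 0.54), and a probable magnesium transporter (TraesCS6A02G189200) was negative at -1.49 (SE 0.40). These SEs were all below that of the peptide transporter on 3B (1.56).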
